A study of Arabidopsis thaliana with 8 samples.

Results

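The gibberellin genes described here are 10 Arabidopsis loci, of 25433 genes with a probe on the array, listed by name for their place in the synthesis, inactivation and perception of the hormone. They are the oxidases GA20OX1, GA20OX2 and GA3OX1 of synthesis, the 2-oxidases GA2OX1, GA2OX2, GA2OX6 and GA2OX8 of inactivation, the receptors GID1A and GID1B, and RGA, a DELLA repressor. Total RNA from whole seedlings of Arabidopsis thaliana, 6 days old, was measured on 8 single-colour Agilent arrays. The lines were tt8-3, a loss-of-function line of the bHLH factor gene TT8 in the Ws background, and Ws wild type as the control, with 4 arrays each. All seedlings grew on full-strength MS medium with 5% sucrose at 22 °C under 16 h of light and 8 h of dark. Each of 2 slides carried 2 arrays per line (replicates 1 and 2 on slide 1, replicates 3 and 4 on slide 2). On both slides the wild type lay at the earlier positions and the mutant at the later ones, so slide position and genotype cannot be told apart, and tt8-3 is a single mutant allele.

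Gibberellins are diterpenoid hormones that promote germination, stem and hypocotyl growth and flowering. The 20-oxidases and then the 3-oxidases carry out the last steps to the active hormone, and the 2-oxidases inactivate active gibberellins or their precursors. Active gibberellin binds a GID1 receptor, the complex takes up a DELLA protein, and the F-box protein SLY1 then leads the DELLA protein to degradation. In wild-type Arabidopsis, active hormone is known to lower transcripts of some 20-oxidase, 3-oxidase and receptor genes and to raise those of several 2-oxidases, a feedback that runs through the DELLA proteins.

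Levels are log2 signal minus log2 of the 75th percentile of the array, so that a level of 0 equals that percentile. That percentile lay between 545 and 1108 signal units, and 69.0% to 77.3% of probes were well above background. Each line has 2 independent biological replicates by the design text, which can be read in 2 ways. In the reading used here the technical replicates share a slide, so arrays were averaged per slide, giving 2 averages per line. In the other, replicates 1 and 3, and replicates 2 and 4, are the technical pairs, and arrays are averaged by position. Over all genes tested, the same-slide array difference had a correlation between slides of 0.88 for wild type and 0.67 for tt8-3, a description across genes, which are not independent replicates. Arrays of the same position thus deviated alike on both slides, and which reading holds is not settled by the labels. With line and slide as a random block, the consensus correlation of same-slide arrays was -0.21. Arrays of a line that shared a slide were thus not more alike than those on different slides. If replicates 1 and 3, and replicates 2 and 4, are the technical pairs, each slide average mixes both biological replicates. The SDs, SEs, 95% intervals and p-values of the slide averages would then measure only the spread between slides. Differences are tt8-3 minus wild type, tested with limma over 19227 genes with Benjamini-Hochberg adjustment and a threshold of 0.05. TT8 (AT4G09820), read first as a check of the labels, had a level of 4.19 to 4.40 on the wild-type arrays. It was not well above background on any tt8-3 array and was at least 1520-fold lower there (limma adjusted p = 0.0018). In whole seedlings, fewer cells of a type and less RNA per cell cannot be told apart.

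Of the 10 members, 8 were tested, each well above background on all 8 arrays. Of these, 4 rose in tt8-3 (GA20OX1, GA20OX2, GA2OX2 and GA2OX6) and 1 fell (GA3OX1). With arrays averaged by position, GA3OX1 alone passed (limma adjusted p = 0.0496), 1 of 8 members where 3.12% of all genes passed, and the 4 rises did not (0.092, 0.076, 0.11 and 0.069 in the order named), with the same changes. The calls given for single genes are those of the slide averages, which take the technical replicates to share a slide. In that fit, over all genes tested 26.7% passed, 15.7% higher and 10.9% lower. The median log2 change was 0.52 over the 8 members and 0.01 over all genes tested, and the median of its absolute size was 0.99 against 0.29. The direction of the changes differed between consecutive steps of synthesis: both 20-oxidase genes were higher in tt8-3 and the 3-oxidase gene was lower. The arrays of the lines did not overlap for 6 of the 8 members, against 33.1% of all genes tested. The members were chosen with earlier results of these data known, so these counts describe them and are no test of the list.

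**Figure D1:**
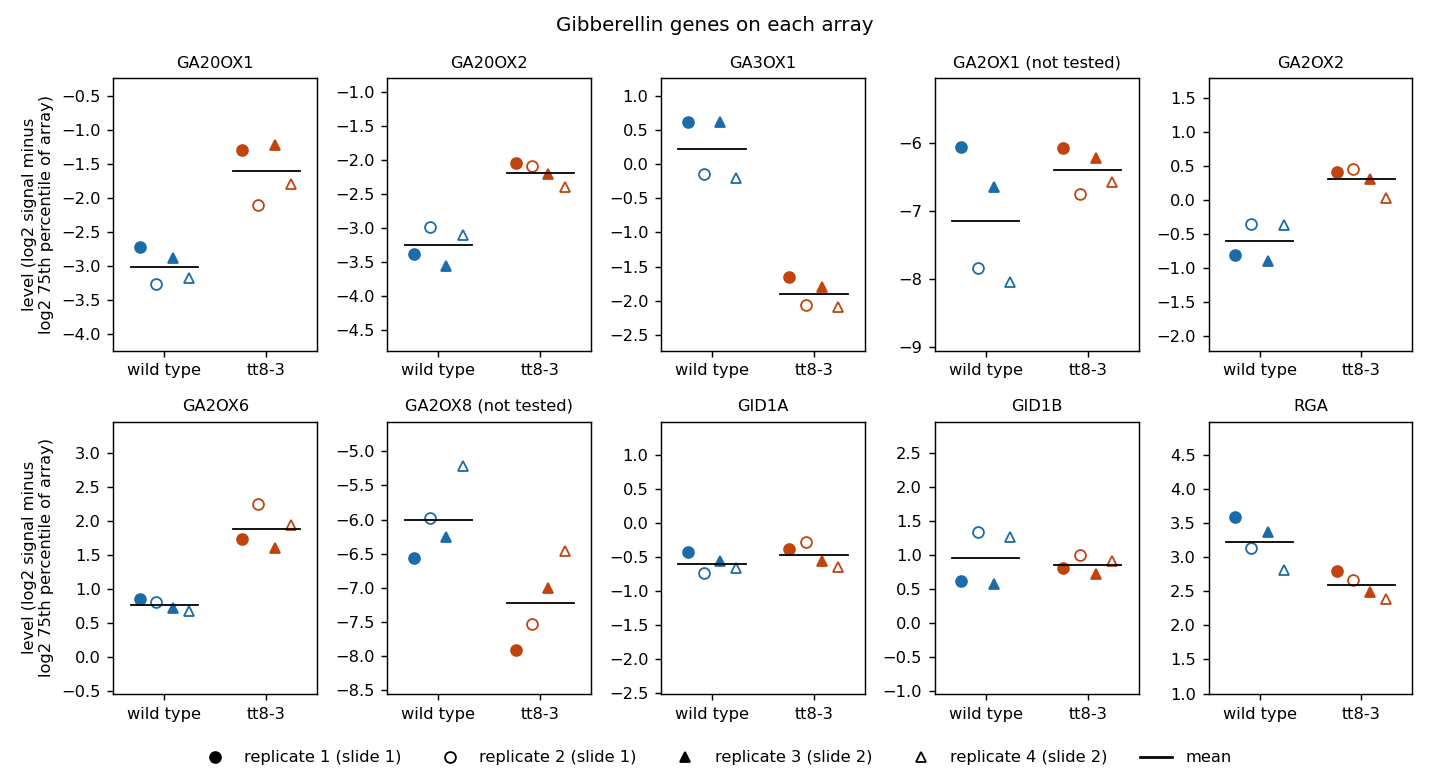
Level of each of the 10 gibberellin genes (vertical axis, log2 signal minus log2 of the 75th percentile of the array) on the 4 wild-type and 4 tt8-3 arrays, with each panel spanning 4 log2 units around its own centre. Points are single arrays, filled for replicates 1 and 3 and open for replicates 2 and 4, circles for slide 1 and triangles for slide 2, and the line is the mean; the wild-type and tt8-3 points are apart for GA20OX1, GA20OX2, GA3OX1, GA2OX2, GA2OX6 and RGA and overlap for the other members.

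GA20OX1 (AT4G25420) encodes the 20-oxidase whose loss gives the semi-dwarf ga5 mutant. Its levels in wild type were -2.71, -3.26, -2.88 and -3.17 in replicates 1 to 4, and in tt8-3 they were -1.29, -2.10, -1.21 and -1.78. All tt8-3 arrays were higher than all wild-type arrays. Its mean rose from -3.01 ± 0.024 to -1.59 ± 0.14 (SD, n = 2 slide averages), a log2 change of 1.41 (SE 0.11, limma adjusted p = 0.0057), or 2.66-fold. The change was 1.30 on slide 1 and 1.52 on slide 2.

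GA20OX2 (AT5G51810), a second 20-oxidase gene that overlaps with GA20OX1 in growth and flowering, moved the same way. Wild-type levels were -3.38, -2.98, -3.56 and -3.10, and tt8-3 levels were -2.05, -2.10, -2.21 and -2.40. The lines did not overlap, and the tt8-3 arrays lay closer together than the wild-type arrays. The log2 change was 1.06 (SE 0.12, limma adjusted p = 0.011), or 2.09-fold, with 1.104 on slide 1 and 1.02 on slide 2. Both 20-oxidase probes had low levels in wild type, and the background correction moved the size for this gene. With normexp fitted without spots of flagged background the change of GA20OX2 was 0.59 and did not pass (limma adjusted p = 0.051), while GA20OX1 changed by 1.02 and passed (limma adjusted p = 0.0094).

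GA3OX1 (AT1G15550) encodes the 3-oxidase that makes active gibberellin in much of the vegetative plant. At its brighter probe, wild-type levels were 0.63, -0.15, 0.62 and -0.20, and tt8-3 levels were -1.65, -2.06, -1.80 and -2.10. The lowest wild-type array was above the highest tt8-3 array. The mean fell from 0.23 ± 0.022 to -1.90 ± 0.067 (SD, n = 2), which gave a log2 change of -2.13 (SE 0.089, limma adjusted p = 0.0020), or 4.37-fold lower. Its absolute change exceeded that of the other 7 tested members. The second probe of the gene, against the same transcript, read 0.01, -0.70, -0.03 and -0.71 in wild type and -2.24, -2.88, -2.41 and -2.72 in tt8-3. Fitted by itself over all probes it changed by -2.21 (SE 0.087, limma adjusted p = 0.0020), so the 2 probes differed little in their change. The gap between the changes of GA20OX1 and GA3OX1 was 3.54 log2 units, a difference that scaling by a single value per array cannot alter.

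**Figure D2:**
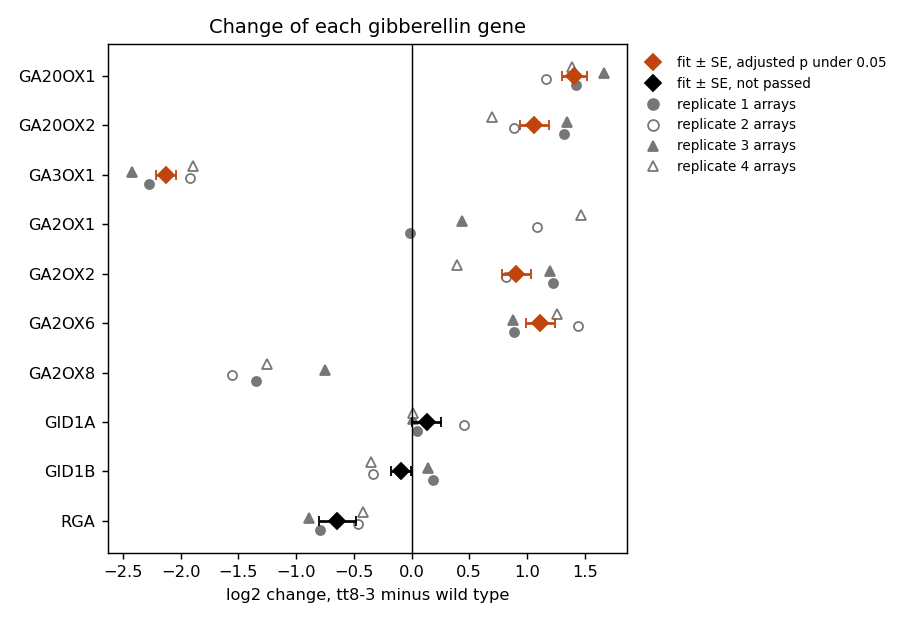
Log2 change from wild type to tt8-3 (horizontal axis) for each gibberellin gene. Diamonds are the fit on slide averages ± SE for the 8 tested members, red where the adjusted p was under 0.05, and grey points are the differences between the tt8-3 and wild-type arrays of the same replicate number; GA3OX1 lies at -2.13 and GA20OX1 at 1.41, while the grey points of GID1B fall on both sides of 0.

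Among the inactivating enzymes, GA2OX6 (AT1G02400), a 2-oxidase gene of the group that acts on active gibberellins, had wild-type levels of 0.85, 0.81, 0.72 and 0.67. Its tt8-3 levels were 1.74, 2.24, 1.59 and 1.93. The wild-type arrays spanned 0.18 log2 units and the tt8-3 arrays 0.65, and they did not overlap. The log2 change was 1.12 (SE 0.12, limma adjusted p = 0.011), or 2.17-fold, with 1.16 on slide 1 and 1.07 on slide 2. Thus, on slide averages, transcripts of 2 synthesis enzymes and of 2 inactivating enzymes passed as higher in tt8-3, and GA3OX1 as lower. None of the rises passed when arrays were averaged by position.

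GA2OX2 (AT1G30040), another 2-oxidase gene of that group, was read by 2 probes that carry different transcript accessions. The brighter probe read -0.81, -0.36, -0.89 and -0.36 in wild type and 0.41, 0.46, 0.31 and 0.03 in tt8-3, without overlap. Its log2 change was 0.91 (SE 0.12, limma adjusted p = 0.015), or 1.88-fold. The dimmer probe read -2.78, -2.98, -3.28 and -3.31 in wild type and -2.30, -2.53, -2.63 and -3.005 in tt8-3. At that probe the lines overlapped, and its change of 0.47 did not pass in the fit over all probes (SE 0.22, limma adjusted p = 0.20). The rise of GA2OX2 thus rests on the brighter probe, although the mean over both probes still passed with a change of 0.69 (limma adjusted p = 0.043).

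GA2OX1 (AT1G78440) and GA2OX8 (AT4G21200) were too dim to be tested. GA2OX1, also a 2-oxidase of active gibberellins, exceeded background clearly on 0 of 4 arrays of the wild type and on 2 of 4 of tt8-3. Its levels were -6.07, -7.84, -6.66 and -8.04 in wild type and -6.08, -6.75, -6.22 and -6.58 in tt8-3, with overlap. GA2OX8, which acts on earlier precursors of the hormone, did so on 2 of 4 arrays of the wild type and on 1 of 4 of tt8-3. Its levels were -6.57, -5.98, -6.25 and -5.21 in wild type and -7.91, -7.54, -7.01 and -6.47 in tt8-3. The highest tt8-3 array lay just above the lowest wild-type array. No fold change is given for either gene, and without a filter on dim probes neither passed (limma adjusted p = 0.088 and 0.17).

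Of the receptors, GID1A (AT3G05120) read -0.43, -0.74, -0.57 and -0.66 in wild type and -0.38, -0.29, -0.55 and -0.65 in tt8-3. GID1B (AT3G63010) read 0.61, 1.34, 0.57 and 1.26 in wild type and 0.80, 1.00, 0.71 and 0.91 in tt8-3 at its brighter probe. The lines overlapped for both receptors, and neither passed. The change of GID1A was 0.13 (95% interval -0.21 to 0.47, limma adjusted p = 0.48) and that of GID1B was -0.09 (95% interval -0.34 to 0.15, limma adjusted p = 0.49). The dimmer probe of GID1B changed by -0.17 and did not pass either (limma adjusted p = 0.32). Leaving out wild-type replicate 2 or 4 turned the change of GID1B to 0.09 or 0.08, and leaving out the tt8-3 arrays of slide 1 turned that of GID1A to -0.0037.

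RGA (AT2G01570), a DELLA protein gene that restrains stem growth and is a main target of the receptors, read 3.60, 3.14, 3.38 and 2.81 in wild type. It read 2.80, 2.67, 2.49 and 2.39 in tt8-3. The lines were separated by 0.01 log2 units, between wild-type replicate 4 and tt8-3 replicate 1, and all 4 pairs of arrays with the same replicate number were lower in tt8-3. The change of -0.64 did not pass (SE 0.16, limma adjusted p = 0.054), with -0.63 on slide 1 and -0.65 on slide 2. With slide as a block on the averages it passed (limma adjusted p = 0.0028), where 64.5% of all genes did. It also passed with the replicate number as a block on single arrays (limma adjusted p = 0.011), where 38.3% of all genes did. RGA did not pass when averaged by position, with quantile normalization or with no filter on dim probes (limma adjusted p = 0.19, 0.090 and 0.11). Neither normexp fit called it (limma adjusted p = 0.23 and 0.074), and it passed in 5 of 13 alternatives. On slide averages it passed without wild-type replicate 4 (change -0.78, limma adjusted p = 0.032) and with no other single array left out. Without the tt8-3 arrays of slide 1 its change was -0.79, and as that fit had a single tt8-3 average left, its call is not read here.

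Within a line, the difference between same-slide arrays kept its sign from slide 1 to slide 2 for all members in wild type, and in tt8-3 for all but GA2OX2 (0.05 and -0.28) and GID1A (0.10 and -0.10). In wild type, replicate 2 minus replicate 1 was -0.77 for GA3OX1 and replicate 4 minus replicate 3 was -0.83. For GID1B these differences were 0.72 and 0.69, and for GA20OX2 they were 0.39 and 0.46. By replicate number 1 to 4, the difference between the lines was -2.28, -1.92, -2.42 and -1.90 for GA3OX1. It was 1.43, 1.17, 1.66 and 1.39 for GA20OX1, and 0.88, 1.44, 0.88 and 1.26 for GA2OX6. For GID1B it was 0.18, -0.34, 0.14 and -0.35, so that replicates 1 and 3 were higher in tt8-3 and replicates 2 and 4 lower. For GA20OX2 it was 1.32, 0.89, 1.35 and 0.70, all above 0.

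With a block, 6 members passed, RGA being the one added, where 64.5% of all genes passed by slide on averages, 38.3% by replicate number and 34.3% by slide on single arrays, and 36.6% with a random block. The number was also 6 with the authors' deposited values (72.2% of all genes), from which each slide's median per probe was already removed. That fit did not count the removal, so its p-values can be too small. The number was 4 with normexp fitted without spots of flagged background (17.8%) and 0 with normexp on all spots (0.546%). It was 5 with quantile normalization (24.2%), median scaling (24.9%), no filter on dim probes (9.46%), a filter over all 8 arrays (25.9%) and the mean over probes (29.6%). Leaving out a single array or slide average gave 12 more fits on slide averages. With any single array left out all 5 genes kept their calls, where 2281 to 5034 of 19227 genes passed. Since the leave-out fits also average by slide, they cannot test the calls if the technical pairs lie at the same position. The changes in these 12 fits ran from -2.34 to -1.92 for GA3OX1, from 1.21 to 1.61 for GA20OX1 and from 0.95 to 1.18 for GA20OX2. They ran from 0.99 to 1.24 for GA2OX6 and from 0.78 to 1.04 for GA2OX2.

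**Figure D3:**
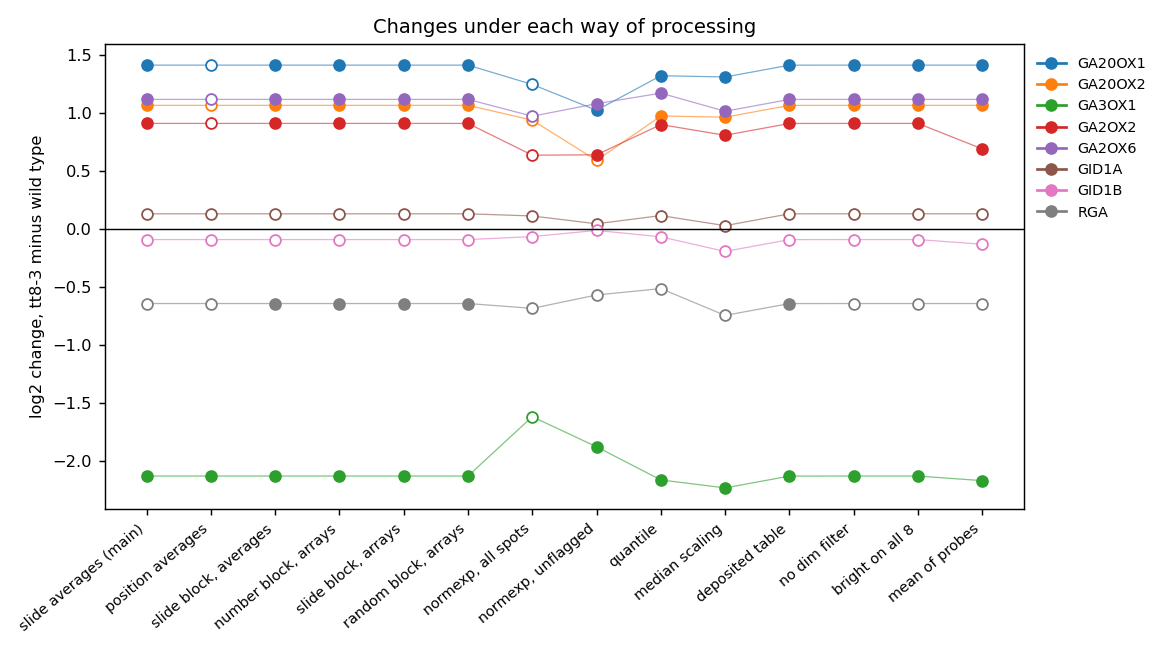
Log2 change from wild type to tt8-3 (vertical axis) of the 8 tested gibberellin genes in the fit on slide averages and in 13 alternatives (horizontal axis). Filled points passed an adjusted p of 0.05 and open points did not; the order of GA3OX1 below RGA below the receptors below the other members is the same throughout, while GA20OX1, GA20OX2, GA2OX2 and GA2OX6 are open when arrays were averaged by position.

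In the rest of the pathway, 31 of 41 listed genes were tested, of which 4 rose and 3 fell, against 15.7% and 10.9% of all genes. Their median log2 change was 0.01. With the replicate number as a block 12 passed, where 38.3% of all genes did, and 21 with slide as a block on averages, where 64.5% did, so these counts lie near the background. Of 5 genes of early synthesis 0 passed with limma, and 0 had an unadjusted p under 0.05. KAO1 (-0.28) and KAO2 (-0.20), the oxidases that make the first gibberellin, GA2 (0.33), the ent-kaurene synthase, and GA1 (0.91), the copalyl diphosphate synthase at the entry of the pathway, had an adjusted p of 0.16 to 0.22 with limma. With slide as a block on averages all 4 passed (limma adjusted p = 0.015 to 0.039), and with the replicate number as a block KAO1 did (0.038). GA1 exceeded background clearly on 2 of 4 arrays of the wild type, and without the wild-type arrays of slide 1 its change was 1.54 (limma adjusted p = 0.014).

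Of 9 other dioxygenase genes 2 were bright enough to test. GA20OX3 (AT5G07200), another 20-oxidase gene, read -3.95, -4.64, -4.01 and -4.52 in wild type and -3.36, -3.70, -3.63 and -3.88 in tt8-3, without overlap. It rose by 0.63 (SE 0.11, limma adjusted p = 0.026), in the direction of both other 20-oxidase genes. The gene passed in 5 of 12 leave-out fits and did not pass with quantile normalization, median scaling or no filter on dim probes (limma adjusted p = 0.085, 0.055 and 0.068), and the change was 0.17 with normexp fitted without spots of flagged background (limma adjusted p = 0.43). GA2OX4 changed by 0.21 and did not pass (limma adjusted p = 0.16). GA20OX4, GA20OX5, GA3OX2, GA3OX3, GA3OX4, GA2OX3 and GA2OX7 were not bright enough on either line. Of 4 other inactivating genes 1 was tested, CYP714A1, which changed by 0.06 and did not pass (limma adjusted p = 0.82).

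Perception genes outside the members went both ways. GID1C (AT5G27320), the remaining receptor gene, read 1.21, 1.06, 1.14 and 0.89 in wild type and 0.48, 0.36, 0.48 and 0.26 in tt8-3. It fell by 0.68 (SE 0.093, limma adjusted p = 0.015), the one receptor gene of 3 that passed. The DELLA gene RGL1 (AT1G66350) read 0.04, -0.19, -0.07 and -0.49 in wild type and 0.53, 1.01, 0.39 and 0.84 in tt8-3, and rose by 0.87 (SE 0.12, limma adjusted p = 0.015). RGL3 (AT5G17490), a DELLA gene known to respond to jasmonate, read -2.97, -3.87, -3.12 and -4.05 in wild type and -2.60, -2.46, -2.73 and -2.97 in tt8-3. It rose by 0.81 (SE 0.15, limma adjusted p = 0.027), with 0.26 and no call with normexp fitted without spots of flagged background (limma adjusted p = 0.15). RGL3 did not pass with quantile normalization, median scaling or no filter on dim probes either (0.061, 0.052 and 0.068). The DELLA genes GAI (-0.25) and RGL2 (0.24), named after their values were seen to complete that family, did not pass, and SLY1 (-0.33), the F-box gene, did not either (limma adjusted p = 0.11 to 0.14). All 3 passed on averages blocked by slide (limma adjusted p = 0.012 to 0.019), where 64.5% of all genes did. With the replicate number as a block SLY1 and GAI did (limma adjusted p = 0.046 and 0.042), where 38.3% of all genes did. Of 5 DELLA genes, RGA included, RGL1 and RGL3 rose and 0 fell with limma on slide averages. With either of these blocks, where those larger shares of all genes passed, RGA and GAI passed as lower.

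Of 14 regulators and response genes 1 rose and 2 fell, 3 in all, near the 26.7% of all genes tested. GASA1 (AT1G75750), a small cysteine-rich protein gene of the gibberellin-regulated GASA family, read 3.83, 4.00, 3.63 and 3.80 in wild type and 4.95, 5.16, 4.88 and 4.99 in tt8-3. It rose by 1.18 (SE 0.12, limma adjusted p = 0.0086). GASA6 (AT1G74670), of the same family and known to be induced by gibberellin, read 5.16, 4.61, 5.24 and 4.87 in wild type and 3.81, 3.75, 4.05 and 4.08 in tt8-3. It fell by 1.05 (SE 0.14, limma adjusted p = 0.015), so that members of 1 family moved in opposite directions. TEM1 (AT1G25560), a factor known to repress GA3OX1, read 3.43, 3.53, 3.47 and 3.42 in wild type and 2.79, 2.69, 2.73 and 2.48 in tt8-3. It fell by 0.79 (SE 0.095, limma adjusted p = 0.012), the direction in which GA3OX1 itself changed. GAF1, a DELLA partner that promotes GA20OX2 transcription, changed by 0.35 and did not pass (limma adjusted p = 0.059). GAF1 passed in 5 of 13 alternatives. With quantile normalization it passed (limma adjusted p = 0.044), where 24.2% of all genes did. It also passed with the replicate number as a block (0.037), where 38.3% did. Of the leave-out fits, the one without tt8-3 replicate 2 alone called it (change 0.46, limma adjusted p = 0.034).

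Of these 7 genes, GASA1 also passed under the averaging by position (limma adjusted p = 0.041) and the other 6 did not (limma adjusted p 0.079 to 0.24). GASA1 and GASA6 kept their calls in all 12 fits with an array or slide average left out. RGL1 lost its call without the wild-type arrays of slide 2 (limma adjusted p = 0.060). TEM1 lost it without the wild-type arrays of slide 1 or slide 2 (0.056 and 0.0502), and GID1C in both of these fits (0.092 and 0.061) and without wild-type replicate 3 (0.065). RGL3 lost it without wild-type replicate 2, 3 or 4, tt8-3 replicate 3, or the wild-type arrays of slide 1 or 2 (0.052 to 0.17). GA20OX3 lost it without wild-type replicate 1, 2 or 4, tt8-3 replicate 3, the wild-type arrays of slide 1 or 2, or the tt8-3 arrays of slide 1 (0.052 to 0.15).

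**Figure D4:**
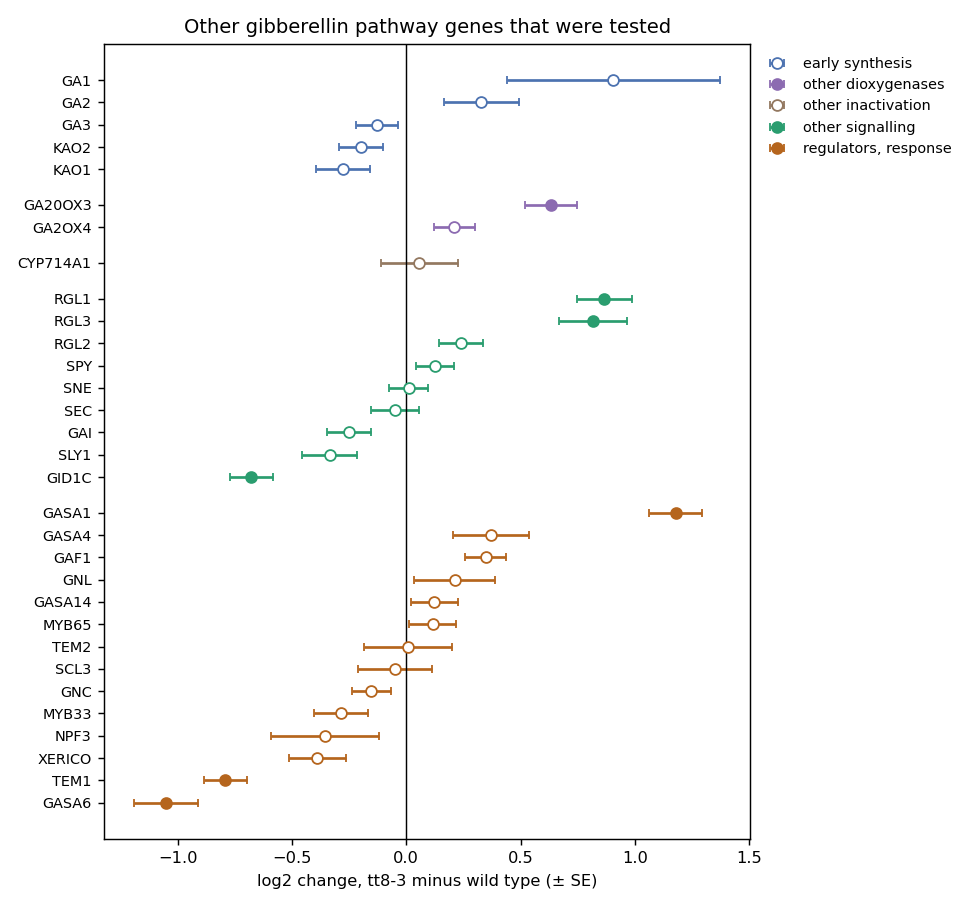
Log2 change from wild type to tt8-3 ± SE (horizontal axis) for the 31 tested genes of the gibberellin pathway outside the 10 members, coloured by list. Filled points passed an adjusted p of 0.05 and open points did not; GASA1, RGL1, RGL3 and GA20OX3 lie above 0 and GASA6, TEM1 and GID1C below it.

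Markers of organs were read beside these genes. All 4 shoot markers and all 5 root markers were well above background on all 8 arrays. Their summed level, in multiples of the 75th percentile, was 605 to 1425 in wild type and 531 to 1022 in tt8-3 for shoot, and 16.9 to 32.1 and 30.9 to 41.1 for root. Such a sum follows its brightest gene, which for root was PYK10, at levels of 3.88 to 5.30 over all arrays. SCR, SHR, PIN2 and NRT2.1 reached at most 0.571, so the root sum says little about them. Of the shoot markers 0 passed with limma on slide averages, although all 4 were lower in tt8-3 on both slides. With slide as a block on averages all 4 passed as lower, and 2 with the replicate number as a block, where 64.5% and 38.3% of all genes passed. Of the root markers NRT2.1 fell by 2.05 (limma adjusted p = 0.0032) and also passed when averaged by position (0.028). PIN2 (-0.08), SCR (-0.02) and SHR (-0.007) did not pass (limma adjusted p = 0.61 to 0.98). PYK10 rose by 0.71 (limma adjusted p = 0.021), which passed in 7 of 12 leave-out fits and not by position (0.30). Of 4 seed markers 3 were tested and 2 rose on slide averages, CRA1 and EM1 (limma adjusted p = 0.00087 and 0.0053). CRA1 was not well above background on any wild-type array, and by these levels it was at least 2.51-fold higher. EM1 rose by 1.80 and exceeded background clearly on only 2 of 4 wild-type arrays. Over 12 alternatives the log2 change ran from 0.52 to 3.36 for CRA1 and from 0.55 to 1.80 for EM1. CRA1 passed in 9 of these and EM1 in 10. With normexp fitted without spots of flagged background, 1 of the 3 tested seed markers passed. Neither CRA1 nor EM1 passed when averaged by position (0.11 and 0.065). In tt8-3 the arrays fell into pairs by position, with CRA1 at -3.53, -5.88, -3.57 and -5.70 and EM6 at 0.01, -2.34, 0.09 and -2.22, so that replicates 1 and 3 were the higher ones. The summed seed marker level was 0.355 to 0.570 in wild type and 0.306 to 1.29 in tt8-3. It mostly follows EM6, the brightest of the seed markers, which changed by 0.15 and did not pass (limma adjusted p = 0.29). Of 3 flower markers AP3 and AG were not well above background on any array, and PI was well above background on all 8. The change of PI was 0.42 (limma adjusted p = 0.047), with lines that overlapped and a call in 1 of 12 leave-out fits and 4 of 13 alternatives. The part of these markers in the changes of the gibberellin genes was not tested.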

How the data were processed

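Per the file headers, the scans were read by Agilent Feature Extraction 10.7.1.1, which wrote for each spot a background-subtracted signal and median intensities of spot and local background. Its 0 or 1 flags, also per the file headers, mark brightness over background, saturation (0 spots here) and unevenness. A second deposited table gives log2 values, which matched log2 processed signal after scaling to the 75th percentile and removal of each slide's median per probe (correlation 1.00 on every array). The amount of RNA is given as 100 ng for every array, and how RNA was otherwise handled after extraction is not given in the sources used here. Probe placement on a genome build and sequences were not used here.

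Uneven or outlying spots were left out (4 to 23 per array), repeated spots were averaged, and 34358 of 43603 probes were named by transcript accession through the gene table (assembly TAIR10.1). The brightest probe on average stood for a gene, which was tested if well above background on all 4 arrays of a line. The steps were run with limma 3.58.1 in R 4.3.3. Of these, only the fit on slide averages was tested on simulated data, with independent noise on each array. That simulation left out the likeness of arrays at the same position, so it cannot show how often slide averages give false calls here. The number of arrays limits the precision, and nothing says how the biological replicates were grown apart, so p-values measure the spread between these samples. For slide averages this is the spread between biological replicates only if the technical replicates shared a slide. The members and lists were chosen with earlier results of these data known. Named genes are all members, TT8 and up to 4 tested genes of each other list with the smallest p. Arrays of the same replicate number shared a slide, and their deviations from the line means correlated at 0.28 to 0.38 over genes. For arrays of the 2 lines on the same slide with different numbers it was 0.14 to 0.22, and on different slides -0.37 to -0.11. Deviations within a line cancel out, so positive correlations with some arrays require negative ones with others. Within that limit, arrays that shared a slide were more alike than arrays on different slides, also without the same number. Whether the numbers pair the samples is not settled. The scanner files give median and not mean spot signals, so normexp used the median signal with an offset of 50.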

Additional observations from a re-analysis of the deposited data

How the results depend on the processing

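Of all genes tested, 5131 passed with slide averages, 59.0% of them higher, and scaling to the median of each array gave 2150 higher and 2632 lower calls (45% higher), a shift of -0.10 in the median of all genes. The count was 599 with averaging by position, 12394 with the replicate block by slide on averages, 105 with planned normexp, 13890 with the deposited table, 2406 without a filter on dim probes, 2281 to 5034 with 1 array left out and 2066 to 3701 with a slide average left out. Of the members 5 passed, against 1 with averaging by position, 0 with planned normexp (all genes 0.546%, 6 members at an unadjusted p under 0.05), and 5 to 6 with an array or average left out. Of other pathway genes 7 passed, against 1 with averaging by position, 21 with the replicate block by slide, 12 with the replicate block by number on single arrays, 11 with a random block, 0 with planned normexp, 26 with the deposited table and 2 to 8 with an array or average left out, where all genes passed at 26.7%, 3.12%, 64.5%, 38.3%, 36.6%, 0.546% and 72.2% in that order up to the deposited table. The planned normexp estimated a background mean of -684 on tt8-3 replicate 4 and 3.36 to 12.4 on the other arrays, so normexp without spots of flagged background was added after seeing the data (members 4, other pathway genes 6). Among genes without a call, GA2OX4 turned to -0.029 with added normexp, CYP714A1 to -0.19 with added normexp, -0.070 with quantile normalization and -0.045 with the median, and RGL2 to -0.051 over the mean of its probes, which disagree. With an array or average left out CYP714A1 ran from -0.14 to 0.26 (-0.068 without the wild-type arrays of slide 2, -0.12 without the tt8-3 arrays of slide 1), GID1B from -0.27 to 0.089 and GID1A from -0.0037 to 0.26. The pairing changed the call of RGA and of no other member. Low signals limit GA2OX1, GA2OX8 and GA1. The counts with the deposited table can be too high, since the fit did not count the removal of each slide's median per probe.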
